A study of Mus musculus with 48 samples.

Results

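Pancreatic progenitors of mouse fetuses were compared between E15 and E11. The comparison used the 7 arrays whose titles name sorted E15.5 progenitors (n = 3) or sorted E11.5 Sox9 cells (n = 4), out of 48 arrays in all, which covered 13 sorted pancreatic populations, 12 of them wild type. The remaining population was Neurog3-null cells of E15, and the populations ranged in age from E11 to adults of 8 to 12 weeks. Both progenitor groups were labelled CD-1 in background and wild type in genotype, and no deletion or treatment was given to either. E15 progenitors (E15.5 in the labels) came from pooled pancreata of the Neurog3eGFP reporter line, were dissociated with trypsin and EDTA, and were sorted as CD133-positive, CD24-positive, CD49f-low cells without Neurog3 reporter fluorescence. E11 progenitors (E11.5 in the labels) came from dorsal pancreatic buds of embryos carrying a Sox9-eGFP artificial chromosome, were dissociated with TrypLE, and were sorted by that fluorescence. The eGFP protein outlasts Sox9 expression, so this gate also held some progeny that no longer made Sox9, a share that the study's methods call low. Stage, reporter line, gate, dissected region and enzyme differed together between the groups and cannot be told apart.

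The pancreas forms from epithelial buds of the foregut. Progenitors of the early bud can give rise to acinar, duct and endocrine cells, and a small early group of endocrine cells, many of them making glucagon, appears in the bud itself. Later the epithelium separates into tips, which form the enzyme-secreting acinar cells, and a trunk, which forms ducts and, through Neurog3-positive endocrine progenitors, the islet cells.

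Levels are log2 RMA values, and differences are E15 minus E11 on that scale, so that a difference of 1 is 2-fold. Each gene was read by its brightest probe on average, and it was said to rise or fall where limma's adjusted p was under 0.05 and the means differed at least 2-fold. A mean at or under 100 on the linear scale (log2 6.64) was treated as low, and the size of a difference against such a mean is not exact. Means carry the SD over 3 E15 and 4 E11 arrays. The labels do not say that replicates of a group were separate litters, so the p-values measure spread between samples. That spread was estimated within all 13 populations over 48 arrays, and not from the progenitor arrays alone. In bulk RNA, fewer cells of a type and less RNA per cell cannot be told apart.

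Of 14485 genes tested, 906 rose (6.25%) and 1060 fell (7.32%), together 13.6%, and the median difference over all genes was -0.01. The list counts below stand beside these shares, and a count near them is only a description of its members. Of the 32078 probes tested, 11.3% were called. Most changes were small. Of the 1966 genes called, 678 differed by at least 2 on the log2 scale and 90 by at least 4, of which 35 rose and 55 fell. The E15 and E11 arrays did not overlap for 1957 of the called genes and overlapped for 9. Calls select for such separation, and uncalled genes such as Pdx1 can show it too. The count is therefore a description and adds no support to the calls. In 447 of the falls the E15 mean was low and the E11 mean was not, and in 292 of the rises the E11 mean was low and the E15 mean was not. Both means were low in a further 247 of the called genes.

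The 7 arrays were alike in overall brightness, with medians between 6.65 and 6.78. Pearson correlations over the probes tested, given as a description, were 0.980 to 0.992 among E15 arrays, 0.992 to 0.996 among E11 arrays and 0.925 to 0.942 between the groups. The median SD of a gene was 0.163 in E15 progenitors and 0.132 in E11 progenitors. The E15 arrays differed from each other along acinar genes. Replicate 2 was the highest E15 array for 28 of 29 digestive genes and replicate 3 the lowest for 28, with a median range of 1.86 between them. Replicate 3 was the highest E15 array for 16 of 21 trunk and duct genes and for 26 of 31 cell cycle genes, beside 61.4% of all genes that rose and 44.2% of all genes not called. The part of these array differences in the results was not tested beyond leaving out each array.

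RNA levels of Sox9, Prom1 and Cd24a, which were among the genes used for sorting, were near equal in the 2 populations, and those of Neurog3 and Itga6 were further apart. Sox9, a transcription factor of the progenitor and duct epithelium, stood at 12.67, 12.59 and 12.43 in E15 progenitors, against 12.41, 12.57, 12.58 and 12.49 in E11 progenitors. These arrays overlapped, and only adult duct cells had a higher mean of Sox9 among the 13 populations. Onecut1, a transcription factor upstream of Neurog3 in the trunk, had 11.31, 11.002 and 11.42 in E15 progenitors, against 10.94, 10.12, 10.73 and 10.93 in E11 progenitors. The 2 progenitor populations held the highest means of Onecut1 of all 13. Since a Sox9 reporter set the E11 gate, the E11 level of Sox9 is given as a description and no support for that label. Prom1 (CD133) averaged 12.20 ± 0.12 in E15 and 12.30 ± 0.08 in E11 progenitors, and Cd24a 13.83 ± 0.04 in E15 and 13.75 ± 0.05 in E11 progenitors. Itga6 (CD49f) averaged 12.56 ± 0.41 in E15 and 11.84 ± 0.12 in E11 progenitors, and E15 acinar cells, taken from the CD49f-high gate, had 13.2.

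Neurog3, the factor that commits progenitors to the endocrine lineage, was higher in E15 progenitors although their gate left out cells with reporter fluorescence. It had 11.64, 11.43 and 11.98 in E15 progenitors, against 9.35, 9.19, 9.28 and 9.34 in E11 progenitors. The groups did not overlap, and the difference was 2.39 ± 0.35 (SE). Endocrine progenitors had a mean of 13.4 for Neurog3, above both. Since the reporter of this gene set the E15 gate, its difference is given as a description.

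**Figure D1:**
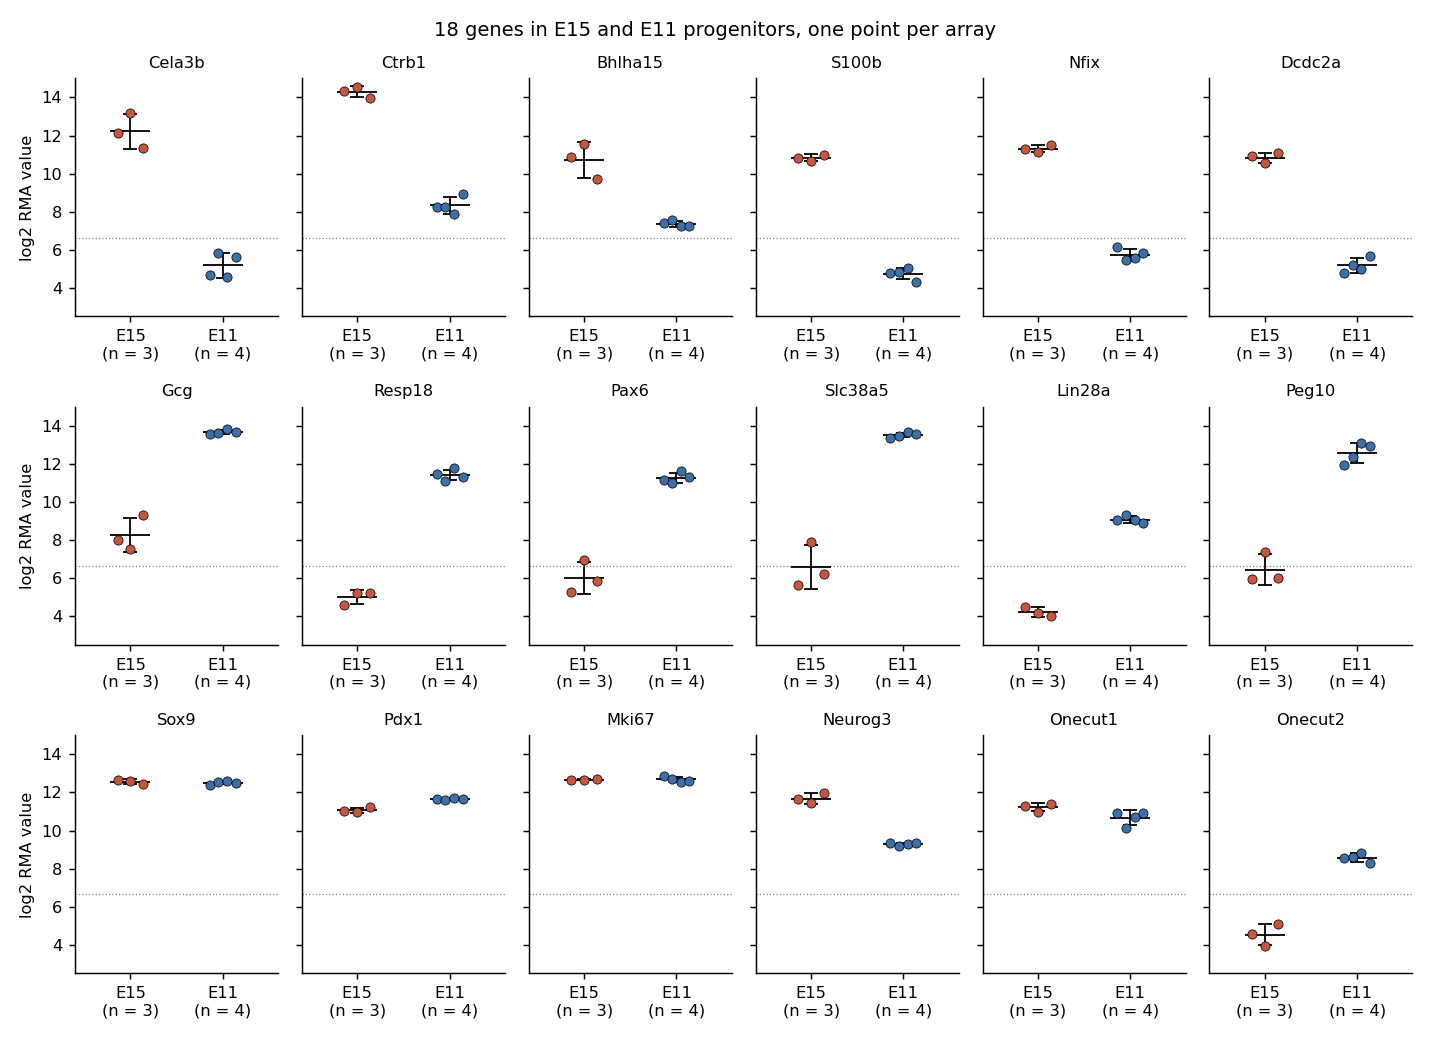
Log2 RMA level of 18 genes in each array, with E15 progenitors (3 arrays) left of E11 progenitors (4 arrays) in every panel. Points are arrays, bars are means, whiskers are SD and the dotted line is log2 of 100 (6.64). Cela3b, Ctrb1, Bhlha15, S100b, Nfix and Dcdc2a sit higher in all E15 arrays, Gcg, Resp18, Pax6, Slc38a5, Lin28a and Peg10 lower in all of them, and the arrays of Sox9 and Mki67 overlap.

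Most transcription factors of the pancreatic progenitor program were not called. Of 23 tested, 2 rose, 4 fell and 17 were not called, with a median of -0.26. Pdx1, required for the pancreatic bud to grow, had 11.02, 10.98 and 11.22 in E15 progenitors, against 11.65, 11.63, 11.73 and 11.67 in E11 progenitors. Its difference of -0.59 (adjusted p = 0.0253) was under 2-fold, though its arrays did not overlap. Ptf1a, which early progenitors need and acinar cells keep, had 11.01, 11.63 and 9.37 in E15 progenitors, against 10.74, 11.05, 10.79 and 11.14 in E11 progenitors, and these overlapped. Nkx6-1, a trunk and beta cell factor, differed by 0.38 (adjusted p = 0.154), Gata6 by 0.83, Gata4 by -0.43 and Hnf4a by -0.45.

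The 4 progenitor factors that fell were Onecut2, Mnx1, Foxa1 and Nkx6-2. Onecut2, a paralogue of Onecut1, had 4.57, 3.95 and 5.08 in E15 progenitors, against 8.55, 8.63, 8.84 and 8.31 in E11 progenitors (difference -4.05, adjusted p = 6.05e-10). Its E15 arrays were all under the low level and far from the E11 arrays, while Onecut1 was not called. Mnx1, needed for the dorsal bud to form, had 4.83, 5.17 and 4.70 in E15 progenitors, against 8.84, 8.41, 8.88 and 8.78 in E11 progenitors (difference -3.83, adjusted p = 5.53e-14). The gap between the groups of Mnx1 arrays was wider than the range within either. Foxa1 fell by 2.71 and Nkx6-2 fell by 1.58, again without overlap. The 2 that rose were Glis3, with 11.67, 11.48 and 11.56 in E15 progenitors against 9.53, 9.65, 9.60 and 9.75 in E11 progenitors (difference 1.94, adjusted p = 8.33e-12), and the Notch target Hes1, which rose by 1.20.

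Digestive enzyme genes included the largest rise of all genes, and part of the list rose. Of 29 tested, 12 rose and 0 fell by limma, and the median was 2.03. At an unadjusted p under 0.05, 15 were higher and 0 lower, and the methods' t-test called the same numbers, 15 and 0. The order of E15 arrays noted above bears on this count: without E15 replicate 2, 7 of 29 rose, and with arrays weighted by their quality 19 rose. Cela3b, a pancreatic elastase, had 12.15, 13.19 and 11.33 in E15 progenitors, against 4.70, 5.85, 4.58 and 5.60 in E11 progenitors. Its difference of 7.04 ± 0.88 (SE, adjusted p = 4.25e-08) was the largest of all genes, and the E11 arrays were low throughout. Rnase1, the pancreatic ribonuclease, had 10.63, 12.03 and 9.63 in E15 progenitors, against 3.69, 4.96, 4.39 and 3.98 in E11 progenitors (difference 6.51, adjusted p = 2.51e-06). Ctrb1, a chymotrypsinogen, had 14.36, 14.57 and 13.99 in E15 progenitors, against 8.26, 8.26, 7.89 and 8.93 in E11 progenitors (difference 5.97, adjusted p = 1.71e-07). For each of the 3 genes the arrays of the groups were separated by several log2 units. Prss3, a trypsinogen, rose by 5.84 and Cela2a by 4.90, and the other risers were Cpb1, Cel, Pnliprp1, Ctrc, Spink1, Zg16 and Tff2, by 1.88 to 4.87. Digestive genes belong to families of similar copies, so a probe can also read a relative.

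Other digestive genes were already well above the low level at E11. Cpa1, a carboxypeptidase of tip progenitors and acinar cells, had 13.50, 13.85 and 13.05 in E15 progenitors, against 13.09, 13.18, 13.14 and 13.19 in E11 progenitors. These arrays overlapped (difference 0.32, adjusted p = 0.852). Clps, the colipase gene, differed by 0.74 with means of 13.1 in E15 and 12.4 in E11 progenitors. Sycn, Klk1, Cela1 and Pnliprp2 differed by 2.63, 2.61, 2.07 and 2.03 without passing the test. For Cela3b, Rnase1, Ctrb1, Prss3 and Cela2a the E11 mean was the lowest of all 13 populations, below the endocrine populations too, where the next lowest mean of Cela3b was 10.4, in E15 beta cells. All 29 digestive genes had higher means in E15 acinar cells and in adult duct cells than in either progenitor population. The list medians were 9.25 in E15 progenitors, 5.78 in E11 progenitors, 12.3 in E15 acinar cells and 13.89 in adult duct cells. They were 7.95 in endocrine progenitors and 7.41 in E15 beta cells. The part of acinar cells or acinar RNA carried into the sorts in these values was not tested.

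The promoters of the 2 digestive genes with the largest difference are shown because acinar bHLH factors bind E-boxes. Both genes were chosen by their rise, so their common direction is no result. The sequences are RefSeq's for build GRCm38.p6 and run 250 bases before to 50 after the annotated start, 5′ to 3′ on the strand of the gene, with every CANNTG in capitals. The Cela3b window is chr4:137430471-137430770 and the Rnase1 window chr14:51146718-51147017, both on the minus strand.
Cela3b: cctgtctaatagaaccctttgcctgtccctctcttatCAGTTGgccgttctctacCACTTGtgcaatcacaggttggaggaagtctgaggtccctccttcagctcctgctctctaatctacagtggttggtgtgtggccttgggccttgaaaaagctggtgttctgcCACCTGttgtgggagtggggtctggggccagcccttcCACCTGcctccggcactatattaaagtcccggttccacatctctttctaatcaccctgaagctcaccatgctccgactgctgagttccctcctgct
Rnase1: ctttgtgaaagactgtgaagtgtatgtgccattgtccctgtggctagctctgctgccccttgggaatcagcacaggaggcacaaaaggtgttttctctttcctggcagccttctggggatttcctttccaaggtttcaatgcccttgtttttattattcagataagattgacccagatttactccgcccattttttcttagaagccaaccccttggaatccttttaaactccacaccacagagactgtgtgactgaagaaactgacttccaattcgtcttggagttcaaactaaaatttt
The Cela3b window held 4 CANNTG matches, at -213, -195, -83 and -46 relative to the start, the last pair of them CACCTG, and the Rnase1 window held 0. CANNTG is the same pattern on both strands, and CACCTG and CAGATG are among its forms. Of the 12 digestive genes that rose, 8 had a promoter in the table, and 7 of these (87.5%) held CANNTG, against 72.1% of all 27025 promoters. CACCTG, searched with its reverse complement, was in 5 of the 8 (62.5%), against 5413 of the 27025, and CAGATG in 0 of the 8, against 4653 (17.2%). A match is a description of the letters and not a binding site.

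Among acinar transcription factors, 3 of 7 rose, with a median of 0.36 over the list. Bhlha15 (Mist1), a bHLH factor of the mature acinar secretory apparatus, had 10.87, 11.58 and 9.70 in E15 progenitors, against 7.39, 7.56, 7.27 and 7.23 in E11 progenitors (difference 3.35, adjusted p = 1.81e-08). Creb3l1 rose by 2.74. Rbpjl, the acinar partner of Ptf1a, had 10.05, 10.98 and 8.36 in E15 progenitors, against 7.34, 8.10, 7.54 and 7.67 in E11 progenitors (difference 2.13, adjusted p = 0.00119), and the methods' t-test did not call it. The lowest E15 array of Rbpjl lay just above the highest E11 array. Nr5a2, Xbp1, Gata4 and Ptf1a were not called, with differences of -0.16, 0.36, -0.43 and -0.26. In E15 acinar cells Bhlha15 averaged 12.8 and Rbpjl 12.1, above both progenitor populations. Secretory genes outside the lists of enzymes and factors rose with the enzymes: Serpini2, a serpin of the exocrine pancreas, by 5.96, and the endoplasmic reticulum protein gene Erp27 by 5.46.

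Most trunk and duct genes rose. Of 21 tested, 15 rose and 0 fell by limma (18 higher and 0 lower at an unadjusted p under 0.05, and 15 and 0 by the methods' t-test), and the median was 2.10. Dcdc2a, a doublecortin family gene, had 10.92, 10.55 and 11.06 in E15 progenitors, against 4.81, 5.22, 5.00 and 5.69 in E11 progenitors (difference 5.66, adjusted p = 1.56e-17). The E11 arrays were low and the E15 arrays close to each other. Aqp1, a water channel, rose by 3.87, the epithelial ETS factor Ehf by 3.80, Vtcn1 by 3.77 and Car2, a carbonic anhydrase, by 2.98. The chloride channel gene Cftr, Bicc1, Mal2, Pkhd1, Cldn10, Tspan8, Muc1, Krt19, Slc4a4 and Elf3 also rose, by 1.33 to 2.83. The keratin gene Krt7 (difference 0.46), Atp1b1, Anxa4, Lcn2, Prom1 and Ambp were not called. Means of the 21 genes in E15 progenitors were above those in E15 acinar cells for 16 and above those in endocrine progenitors for 17. They were above adult duct cells for 7, and the list medians were 11.53 in E15 progenitors, 9.13 in E11 progenitors and 12.13 in adult duct cells.

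**Figure D2:**
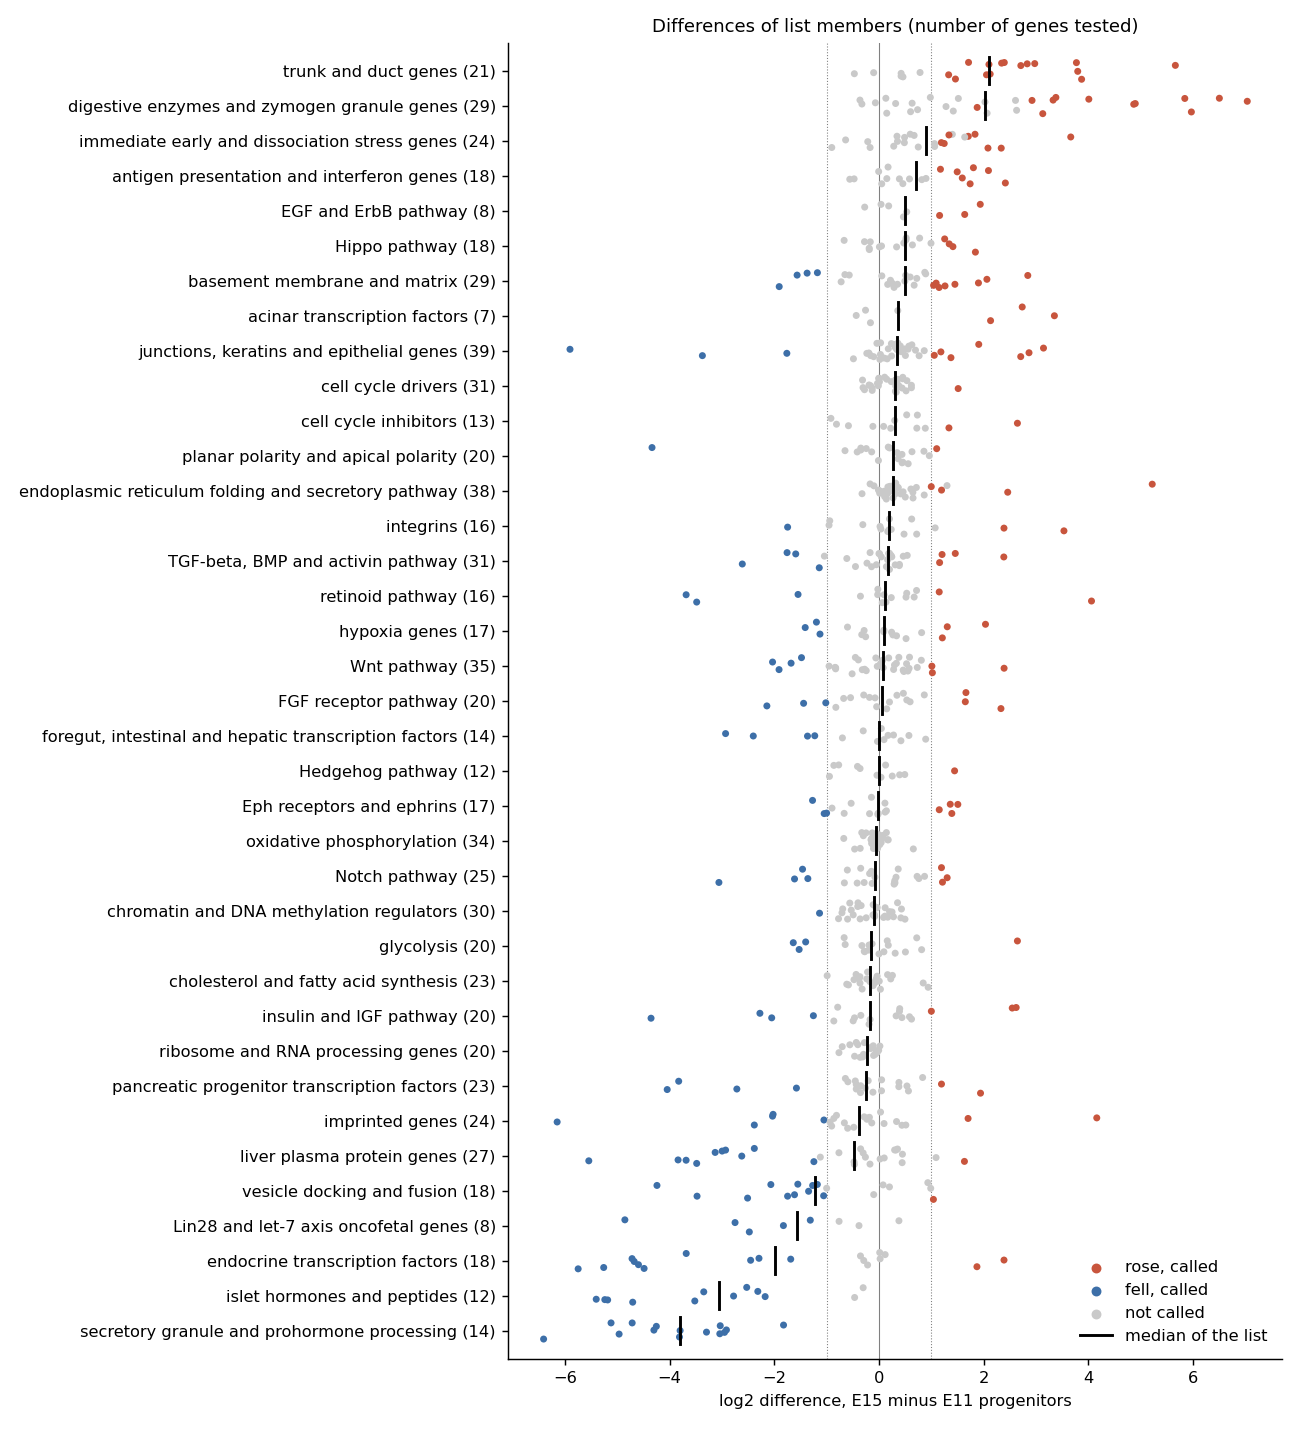
Difference E15 minus E11 (log2) of every tested gene, 1 line per gene list, ordered by list median. Red points rose, blue points fell, grey points were not called, black bars are medians and dotted lines mark a difference of 1 either way. Trunk and duct genes (median 2.10) and digestive genes (2.03) lie at 1 end and granule genes (-3.81) and hormones (-3.06) at the other, while oxidative phosphorylation genes stay around -0.06.

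Endocrine transcription factors fell in number, with Neurog3 going the other way. Of 18 tested, 10 fell, 2 rose and 6 were not called, and the median was -1.99. Pax6, an alpha and beta cell factor, had 5.28, 6.95 and 5.83 in E15 progenitors, against 11.15, 11.02, 11.65 and 11.30 in E11 progenitors (difference -5.26, adjusted p = 9.93e-21). Irx2, a factor enriched in alpha cells, had 4.94, 5.08 and 4.70 in E15 progenitors, against 10.46, 10.37, 11.12 and 10.67 in E11 progenitors. Neither gene overlapped, and replicate 2 was the highest E15 array of both. Isl1 fell by 4.72, St18 by 4.68 and Neurod1 by 4.60, and Pou3f4, Irx1, Myt1, Runx1t1 and Mlxipl fell by 1.69 to 4.49. Beside Neurog3, Neurod2 rose by 1.87 with means of 6.6 in E15 and 4.8 in E11 progenitors. Of the factors that act after Neurog3, Insm1 and Pax4 were near equal, unlike Neurod1 above. Insm1 had 10.52, 10.14 and 10.53 in E15 progenitors, against 10.24, 10.44, 10.61 and 10.24 in E11 progenitors (difference 0.01, adjusted p = 0.978). Pax4 differed by -0.29 (adjusted p = 0.362). Endocrine progenitors had means of 12.4 for Insm1 and 12.8 for Pax4, above both progenitor populations.

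Islet hormone genes were lower in E15 progenitors. Of 12 tested, 10 fell and 0 rose by limma (12 lower and 0 higher at an unadjusted p under 0.05, 9 and 0 by the methods' t-test), with a median of -3.06. Gcg, which encodes glucagon, had 7.99, 7.56 and 9.30 in E15 progenitors, against 13.57, 13.65, 13.85 and 13.68 in E11 progenitors. The E11 level of Gcg was close to that of endocrine progenitors, at 13.9. The study states that very abundant mRNAs, such as those for insulin and glucagon, can saturate the array probes. Differences between such high levels are therefore not exact. Pyy, expressed in early endocrine cells, had 8.11, 10.01 and 8.63 in E15 progenitors, against 14.12, 14.06, 14.16 and 14.06 in E11 progenitors (difference -5.18, adjusted p = 2.02e-10). Gast, the gastrin gene, fell by 5.24, Iapp by 4.71 and Ppy by 3.52, and Gip, Cck, Npy, Ghrl and Ins2 fell by 2.17 to 3.35. Ins2, an insulin gene, had 6.34, 7.395 and 6.85 in E15 progenitors, against 8.94, 8.81, 9.04 and 9.35 in E11 progenitors, both far below the 14.3 of E15 beta cells. Sst and Ttr were not called, with differences of -0.46 and -0.30. Sct, which encodes secretin, was not in the list and fell by 5.64, with all 4 E11 arrays above the other 44.

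Every tested gene of the secretory granule and prohormone processing list fell, 14 of 14, and the median was -3.81. Resp18, a granule protein gene, had 4.59, 5.23 and 5.24 in E15 progenitors, against 11.45, 11.13, 11.78 and 11.34 in E11 progenitors (difference -6.41, adjusted p = 7.6e-18). Chgb, a granin, had 6.71, 9.76 and 8.24 in E15 progenitors, against 13.39, 13.34, 13.38 and 13.31 in E11 progenitors (difference -5.12, adjusted p = 6.5e-14). The E11 arrays of Chgb agreed to within 0.1 while the E15 arrays spread over about 3 log2 units, with replicate 2 highest as for 11 of the 14 genes, beside 44.3% of all genes that fell. Scg5 fell by 4.96, Scg3 fell by 4.72, Ptprn2 fell by 4.30, and Pcsk1, the prohormone convertase gene, fell by 3.30. Vesicle docking and fusion genes followed, with 11 of 18 falling, 1 rising and a median of -1.22. Cadps (-4.24), Snap25 (-3.48), Syt7 (-2.51), Syt13 (-2.07) and Syt4 (-1.75) had the largest falls, and Rab3d, which acts on zymogen granules, rose by 1.04. The Rab3d call was the single rise of that list, and leaving out an array changed the number of rises to 0 or 2.

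Levels of the endocrine lists in E11 progenitors lay between those of E15 progenitors and those of endocrine cells. The granule medians were 6.14 in E15 progenitors and 9.95 in E11 progenitors, beside 11.86 in endocrine progenitors and 13.05 in E15 beta cells. The hormone medians were 6.89 in E15 and 10.36 in E11 progenitors, beside 12.55 in endocrine progenitors. The endocrine factor medians were 8.21 in E15 and 10.55 in E11 progenitors, beside 12.47 in endocrine progenitors. Of the granule genes, 0 of 14 in E15 progenitors and 1 of 14 in E11 progenitors had a mean above endocrine progenitors. How much of this came from endocrine progeny inside the Sox9-eGFP gate was not tested.

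Promoters of Resp18, the granule gene with the largest fall, and Irx2, the endocrine factor with the largest fall, are shown for comparison with the digestive pair, since Neurog3 and Neurod1 are bHLH factors too. The windows are chr1:75278366-75278665 on the minus strand for Resp18 and chr13:72628570-72628869 on the plus strand for Irx2 (RefSeq, GRCm38.p6), and capitals again mark CANNTG.
Resp18: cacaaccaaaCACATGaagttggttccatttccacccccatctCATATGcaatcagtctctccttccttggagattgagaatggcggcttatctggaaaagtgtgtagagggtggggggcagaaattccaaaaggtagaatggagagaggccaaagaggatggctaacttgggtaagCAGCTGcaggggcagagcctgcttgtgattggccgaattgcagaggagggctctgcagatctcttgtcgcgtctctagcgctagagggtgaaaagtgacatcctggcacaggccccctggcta
Irx2: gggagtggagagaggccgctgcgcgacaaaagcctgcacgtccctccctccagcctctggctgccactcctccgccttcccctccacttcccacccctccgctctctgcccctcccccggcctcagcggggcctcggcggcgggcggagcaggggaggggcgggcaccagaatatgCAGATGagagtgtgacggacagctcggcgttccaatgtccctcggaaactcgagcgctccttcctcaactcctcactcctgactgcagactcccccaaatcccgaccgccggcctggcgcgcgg
The Resp18 window held 3 CANNTG matches, at -240, -207 and -73, and the Irx2 window held 1, CAGATG at -74. Of the 24 granule genes and endocrine factors that fell, 18 had a promoter in the table, and 12 of these (66.7%) held CANNTG, 5 (27.8%) CACCTG and 1 (5.6%) CAGATG, against 19498, 5413 and 4653 of all 27025 promoters.

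**Figure D3:**
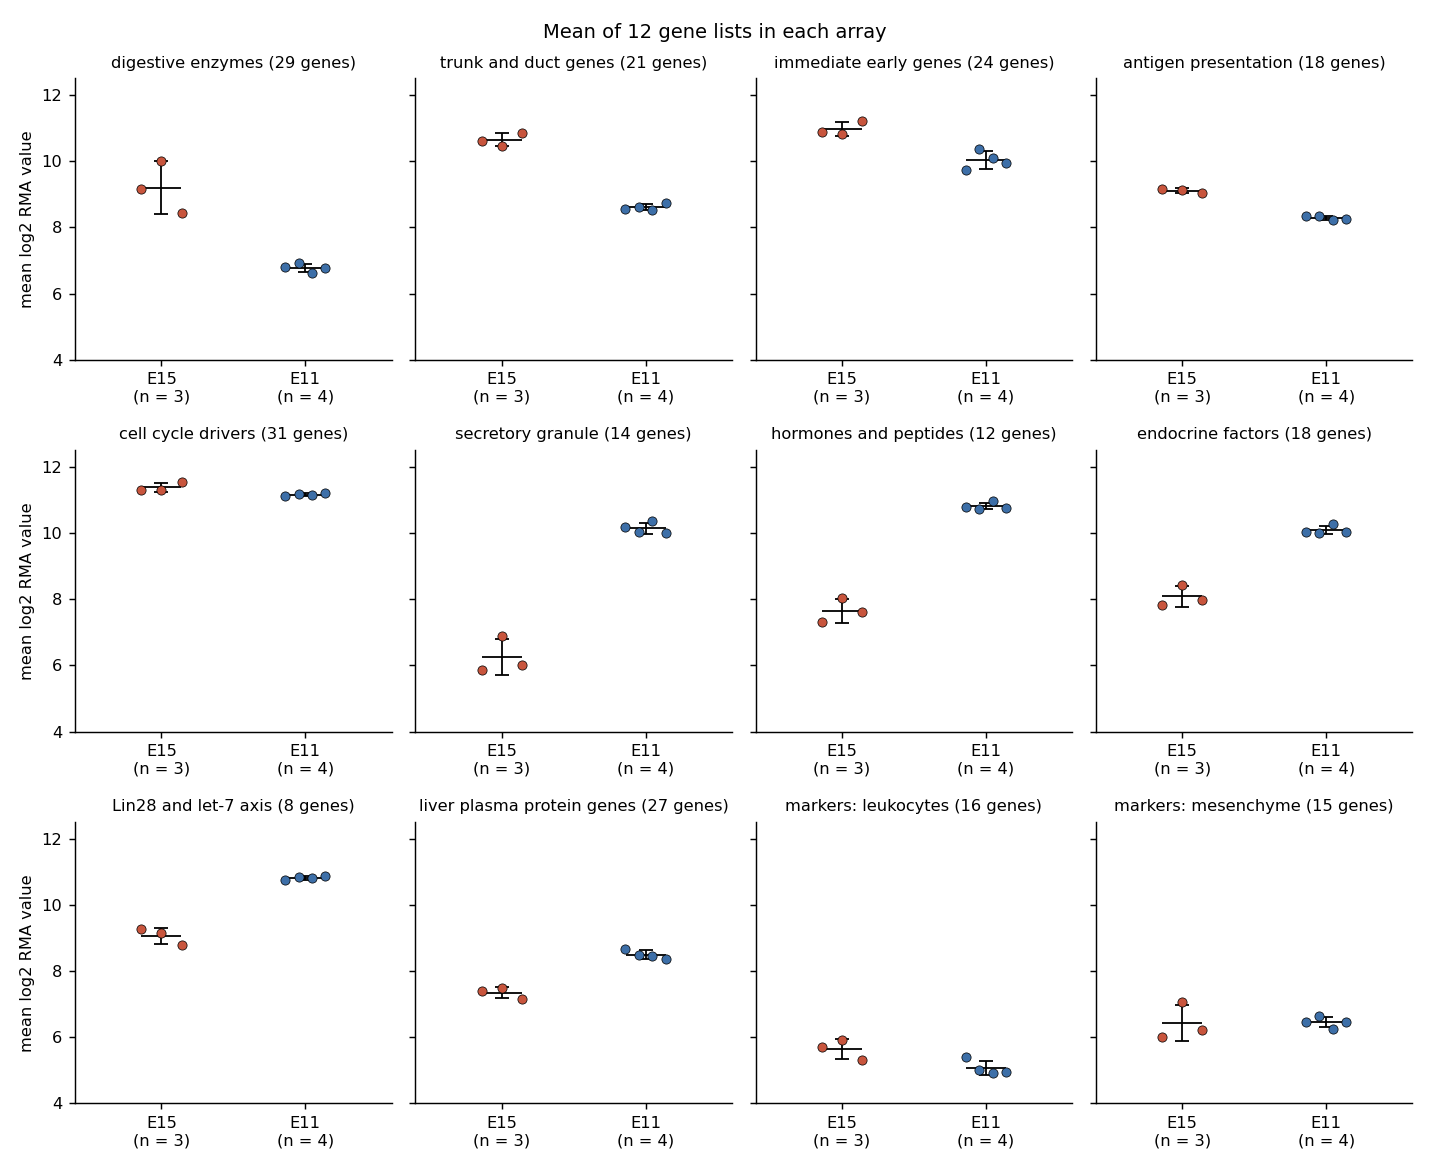
Mean log2 level over the tested genes of 12 lists in each array, E15 progenitors left of E11 progenitors, with the mean and SD over arrays. The digestive list is at 9.16, 10.02 and 8.42 in E15 arrays against 6.63 to 6.91 in E11 arrays, the granule list at 5.87, 6.87 and 6.01 against 10.01 to 10.36, and cell cycle drivers at 11.29 to 11.53 against 11.11 to 11.20.

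Large falls were also found outside these lists. Slc38a5, an amino acid transporter, had 5.63, 7.89 and 6.24 in E15 progenitors, against 13.39, 13.48, 13.68 and 13.56 in E11 progenitors. This was the largest fall of all genes (difference -6.94 ± 0.42 SE, adjusted p = 2.85e-16), and endocrine progenitors had 13.1. Sphkap, an anchor of protein kinase A, fell by 6.11, Gjd2, the connexin of beta cells, by 5.90, Nap1l5 by 5.86, Slc7a14 by 5.33 and the G protein subunit Gng4 by 5.28. These 5 genes had means of 10.1 to 12.7 in endocrine progenitors. Another probe of Gng4 was near equal, with a difference of 0.42.

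Genes of the Lin28 and let-7 axis, which mark early embryonic cells, fell or were not called. Of 8 tested, 5 fell and 0 rose by limma (6 lower and 0 higher at an unadjusted p under 0.05, and 5 and 0 by the methods' t-test), with a median of -1.57. Lin28a, which blocks maturation of let-7, had 4.49, 4.201 and 4.002 in E15 progenitors, against 9.07, 9.32, 9.04 and 8.91 in E11 progenitors (difference -4.85, adjusted p = 1.5e-16). All E15 arrays were low, as were the 11 other populations, whose means were 3.7 to 5.0. Arid3b fell by 2.75, Trim71 by 2.48, Igf2bp1 by 1.83 and Arid3a by 1.31, and for each of these 4 all E11 arrays lay above the other 44. Hmga2, Igf2bp3 and Mycn were not called. Hmga2 had 13.51, 13.33 and 13.29 in E15 progenitors, against 13.70, 13.75, 13.82 and 13.75 in E11 progenitors, so its arrays were near each other at a high level.

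Imprinted genes did not move as a block. Of 24 tested, 5 fell and 2 rose, with a median of -0.38. Peg10, a paternally expressed gene derived from a retrotransposon, had 5.95, 7.38 and 5.99 in E15 progenitors, against 11.95, 12.37, 13.11 and 12.94 in E11 progenitors (difference -6.15, adjusted p = 2.8e-09). Nnat (-2.38), Zim1 (-2.03), Mest (-2.02) and Sgce (-1.05) also fell. Sgce lies beside Peg10 in the genome. The potassium channel gene Kcnq1 had 10.85, 10.91 and 11.14 in E15 progenitors, against 6.94, 6.84, 6.67 and 6.76 in E11 progenitors (difference 4.16, adjusted p = 3.05e-16), and Plagl1 rose by 1.70. Igf2 (-0.86), Dlk1 (-0.66), Peg3 (-0.22) and Meg3 (-0.28) were not called. With the probe of smallest p for each gene, 8 imprinted genes fell.

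Liver plasma protein genes and foregut factors were lower for some members. Of 27 liver plasma protein genes, 10 fell and 1 rose, with a median of -0.47. Fgg, a fibrinogen chain, had 4.92, 4.46 and 4.37 in E15 progenitors, against 10.10, 10.07, 10.14 and 10.20 in E11 progenitors (difference -5.54, adjusted p = 3.2e-07). F2, the prothrombin gene, fell by 3.84, Fga by 3.68, Rbp4 by 3.48 and Serping1 by 3.13, and Fgb, Vtn, Afp, Apom and Itih2 fell by 1.24 to 3.00. The defining hepatocyte genes Alb and Apoa1 were not called, with means of 7.5 and 6.7 in E15 progenitors, against 8.0 and 7.0 in E11 progenitors. Serpina6, the corticosteroid-binding globulin gene, rose by 1.63. Serpina1c, an antitrypsin gene with near-identical copies, had 2.89, 3.17 and 2.98 in E15 progenitors, against 8.74, 9.93, 9.22 and 9.76 in E11 progenitors (difference -6.40), above the other 44 arrays in all 4. Of 14 foregut, intestinal and hepatic factors 4 fell, Hoxa3 (-2.93), Sox11 (-2.401), Cdx2 (-1.36) and Hoxb4 (-1.23), and without E15 replicate 3, where Cdx2 and Hoxb4 were not called, the number was 2. Cdx2, an intestinal factor, had 5.05, 4.53 and 4.03 in E15 progenitors, against 5.49, 7.01, 5.58 and 5.51 in E11 progenitors, so that 1 E11 array stood apart from the others, and its call was lost without that array (replicate 2) and without E15 replicate 2 or 3.

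Cell cycle drivers were at similar levels in both populations. Of 31 tested, 1 rose and 0 fell by limma (4 higher and 1 lower at an unadjusted p under 0.05, and 1 and 0 by the methods' t-test), with a median of 0.31. Mki67, which marks cycling cells, had 12.64, 12.67 and 12.73 in E15 progenitors, against 12.89, 12.71, 12.57 and 12.59 in E11 progenitors, with overlap and a difference of -0.01. Top2a differed by 0.52 (adjusted p = 0.0757) and Pcna by 0.01. Cdk6, a G1 kinase, had 10.66, 10.71 and 10.95 in E15 progenitors, against 9.27, 9.36, 8.97 and 9.42 in E11 progenitors (difference 1.51, adjusted p = 0.000262). Of 13 cell cycle inhibitors, Cdkn2c rose by 2.65 with an E11 mean of 4.15 that was the lowest of all populations, and Btg2 rose by 1.34. The Btg2 call was lost without E15 replicate 3, whose 10.89 was above the 10.07 and 10.04 of the other E15 arrays and the 8.77 to 9.28 of the E11 arrays. The count of inhibitors was also 1 without E11 replicate 1.

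Notch genes moved in both directions. Of 25 tested, 3 rose and 4 fell. The receptors Notch1 (-0.42), Notch2 (0.30) and Notch3 (0.33) and the ligands Dll1 (0.37) and Jag1 (-0.60) were not called. Among targets, Hes1 rose by 1.20 with means of 10.3 in E15 and 9.1 in E11 progenitors, Heyl by 1.30 and Hey2 by 1.21, while Hey1 had 9.53, 9.27 and 9.55 in E15 progenitors, against 11.06, 10.77, 10.56 and 10.85 in E11 progenitors (difference -1.36, adjusted p = 0.00513). The target genes thus went opposite ways in the same arrays. Dtx1, a regulator of the receptor (-3.06), the ligand Dll3 (-1.61) and the glycosyltransferase Mfng (-1.46) fell. Endocrine progenitors had the higher means of Dll3 and Mfng, at 8.7 and 10.8.

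Of 20 genes of the FGF receptor pathway 3 rose and 3 fell. The receptor Fgfr3 had 10.09, 10.11 and 10.81 in E15 progenitors, against 8.01, 8.14, 7.99 and 7.88 in E11 progenitors (difference 2.33, adjusted p = 3.26e-12). Fgfr2, the receptor for mesenchymal Fgf10, differed by 0.87 and was not called. Fgfbp1 rose by 1.66 and Fgf12 by 1.65. Etv4, a transcriptional target of the pathway, had 5.89, 5.62 and 5.56 in E15 progenitors, against 8.26, 7.90, 7.58 and 7.57 in E11 progenitors (difference -2.14, adjusted p = 3.38e-11), and Etv5 fell by 1.44 and Spry4 by 1.02. All E11 arrays of Etv4 and Etv5 lay above the other 44, but Dusp6, Spry1 and Spry2, further targets, were not called. The number of falls was 1 without E11 replicate 2, E15 replicate 1 or E15 replicate 2. The call of Etv5, read by its brightest probe, was lost without any 1 of the E15 arrays or without E11 replicate 2. It was also lost with the replicate block (adjusted p = 0.056). All 3 probes of Etv5 fell in the main fit. The others had differences of -2.0919 and -1.4978 (limma adjusted p = 1.25e-10 and 8.58e-07). Whether their calls held in the alternative fits is not shown.

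Among 35 Wnt genes 3 rose and 4 fell, numbers near the shares of all genes tested (6.25% rose and 7.32% fell). The 4 that fell encode secreted proteins of inhibitor families, which is given as a description of these members. Dkk3 fell by 2.03, Frzb by 1.91, Sfrp5 by 1.68 and Sfrp2 by 1.48. Another probe of Sfrp5 was near equal, with a difference of -0.09. The ligand Wnt5a had 7.35, 6.80 and 7.35 in E15 progenitors, against 4.59, 5.14, 4.66 and 4.73 in E11 progenitors (difference 2.39, adjusted p = 5.25e-06), and the receptors Fzd6 and Fzd7 rose by 1.02 and 1.01. The number of rises was 1 without E11 replicate 3 or E15 replicate 3. The targets Axin2 and Rnf43 differed by 0.81 and 0.73 and were not called. In the Hippo list, 4 of 18 rose and the median was 0.50: Wwtr1 (TAZ), the coactivator of the pathway, by 1.84, its target genes Ankrd1 by 1.41 and Ccn2 by 1.34, and the kinase Lats2 by 1.26. Yap1, the paralogue of Wwtr1, differed by -0.17.

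Of 31 genes of TGF-beta, BMP and activin signalling 4 rose and 4 fell. Bmp4 had 4.39, 4.52 and 4.18 in E15 progenitors, against 7.06, 7.06, 7.03 and 6.75 in E11 progenitors (difference -2.61, adjusted p = 4.59e-09). Its target Id3 (-1.59), the receptor Acvr2b (-1.76) and the pseudoreceptor Bambi (-1.14) fell. Inhbb, an activin subunit, rose by 2.39, the receptor Tgfbr2 by 1.46, the ligand Tgfb2 by 1.21 and Acvr1c by 1.16. The other 23 members were not called. In the Hedgehog list, 1 of 12 rose, Gas1, a coreceptor, by 1.45, and 0 rose without E11 replicate 1 or E15 replicate 1. Its targets Ptch1 and Gli1 differed by 0.13 and 0.04.

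Of 16 retinoid genes 2 rose and 3 fell. Aldh1a1, an enzyme of retinoic acid synthesis, had 9.99, 10.83 and 9.39 in E15 progenitors, against 5.98, 6.12, 5.85 and 6.08 in E11 progenitors (difference 4.06, adjusted p = 1.1e-06). Its mean in E15 acinar cells was 12.0. The retinoid carriers Crabp1 (-3.68), Rbp4 (-3.48) and Crabp2 (-1.55) fell. Crabp1 had 5.58, 6.78 and 4.86 in E15 progenitors, against 9.55, 9.83, 9.05 and 9.27 in E11 progenitors, the highest of all populations. Dhrs3 rose by 1.15, and its call was lost with the replicate block (adjusted p = 0.072) and without any of 5 arrays, namely E15 replicates 1 and 2 and E11 replicates 2, 3 and 4.

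In the insulin and IGF pathway 3 of 20 rose and 4 fell. Igf1 had 10.33, 11.16 and 8.91 in E15 progenitors, against 7.75, 8.01, 7.10 and 7.49 in E11 progenitors (difference 2.55, adjusted p = 2.28e-05). Its E15 arrays followed the acinar order, with replicate 2 highest and replicate 3 lowest, and E15 acinar cells had 12.1. Igfbp7 rose by 2.62 and Irs2 by 1.00, while the adaptor gene Irs4 fell by 4.35, Igfbp1 by 2.27, Igfbp2 by 2.05 and Igfbp4 by 1.25. Another probe of Irs4 was near equal, with a difference of 0.12, and without E15 replicate 3 Igfbp1 was not called and the number of falls was 2. In the EGF and ErbB list 3 of 8 rose, Btc, a ligand, by 1.94, Egfr by 1.64 and Erbb2 by 1.16, the last of which was not called without E15 replicate 3. Erbb3 differed by 0.19 and was not called. Eph receptors and ephrins went both ways, with 4 of 17 rising, Efnb2 by 1.51, Efna1 by 1.39, Epha2 by 1.36 and Efnb1 by 1.15, and 3 falling, among them Efnb3 by 1.27. The call of Efnb2 was lost without E15 replicate 3. The falls numbered 1 without E11 replicate 1, E11 replicate 3 or E15 replicate 2.

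Epithelial junction genes changed in a minority. Of 39 tested, 7 rose and 3 fell, with a median of 0.34. The claudin genes Cldn18, Cldn2, Cldn8 and Cldn3 rose by 3.14, 2.87, 2.71 and 1.06, and Cldn1 fell by 1.76. Cldn2, which forms paracellular pores, had 7.68, 7.20 and 8.25 in E15 progenitors, against 5.27, 4.41, 4.93 and 4.77 in E11 progenitors. Another probe of Cldn2 was low in both and not called, with a difference of 0.26. Cdh2, N-cadherin, had 7.90, 8.03 and 7.66 in E15 progenitors, against 11.49, 11.14, 11.22 and 11.11 in E11 progenitors (difference -3.37, adjusted p = 1.6e-13), and Cdh1, E-cadherin, differed by 0.31 and was not called. Epcam, Krt8 and Krt18 were not called either, with means of 13.2, 13.6 and 13.9 in E15 progenitors, against 12.9, 13.01 and 13.04 in E11 progenitors. Of 20 polarity genes Celsr3 fell by 4.34 and Ptk7 rose by 1.10. The call of Ptk7 was lost without E15 replicate 3 or without E11 replicate 1, 3 or 4, and with the replicate block (adjusted p = 0.053), and its E15 replicate 3, at 8.03, stood apart from 6.35 and 6.37.

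Basement membrane and matrix genes rose more often than they fell, 8 against 4 of 29, with a median of 0.50. The laminin chain Lama4 had 8.35, 8.85 and 9.0002 in E15 progenitors, against 5.55, 6.49, 5.99 and 5.53 in E11 progenitors (difference 2.84, adjusted p = 2.12e-07). The type IV collagen chains Col4a5 and Col4a6 rose by 2.06 and 1.90, while Col4a1 and Col4a2 differed by 0.50 and 0.35 and were not called. Npnt, nephronectin, fell by 1.91 and Col2a1 by 1.56, and both populations held the highest means of Col2a1, 10.69 in E15 and 12.25 in E11 progenitors. Of 16 integrins 2 rose, Itgb6 by 3.54 and Itgb4 by 2.39, and 1 fell, Itga4 (-1.75). Itgb6, an epithelial integrin, had 7.24, 7.08 and 8.03 in E15 progenitors, against 4.02, 3.66, 3.70 and 4.28 in E11 progenitors. Without E11 replicate 3 a further integrin fell, making 2.

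Genes of protein folding and export were near equal for the most part. Of 38, 4 rose and 0 fell by limma (15 higher and 0 lower at an unadjusted p under 0.05, 3 and 0 by the methods' t-test), with a median of 0.27. Pdia2, a pancreatic disulfide isomerase, rose by 5.22, Kdelr3 by 2.46, Edem1 by 1.20 and Herpud1 by 1.00. Edem1 and Herpud1 were no longer called without E15 replicate 2, leaving 2, and Herpud1 also without E11 replicate 1 or 3. Hspa5 (BiP) differed by -0.09. Oxidative phosphorylation genes gave 0 calls of 34 by limma and by the methods' t-test, with 0 higher and 5 lower at an unadjusted p under 0.05 and a median of -0.06. Cholesterol and fatty acid synthesis genes gave 0 calls of 23 by both tests (2 higher and 4 lower unadjusted), and ribosome and RNA processing genes 0 of 20 (0 higher and 7 lower unadjusted). Of 30 chromatin regulators Cbx2, a Polycomb subunit, fell by 1.14.

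In glycolysis 1 of 20 rose and 3 fell: Aldoc had 11.497, 11.39 and 11.79 in E15 progenitors, against 9.06, 9.01, 8.82 and 8.76 in E11 progenitors (difference 2.65), and Eno2, the neuroendocrine enolase, fell by 1.64, Hk1 by 1.52 and Slc16a3 by 1.40. Without E15 replicate 3 the rises numbered 2. Of 17 hypoxia genes 3 rose, Car9 by 2.04, Ndrg1 by 1.31 and Vegfa by 1.21, and 3 fell, Ankrd37 by 1.41, Bnip3 by 1.19 and P4ha2 by 1.13. Hypoxia genes therefore had no common direction.

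Immediate early and dissociation stress genes were higher in part in E15 progenitors. Of 24, 8 rose and 0 fell by limma (12 higher and 1 lower at an unadjusted p under 0.05, 11 and 0 by the methods' t-test), with a median of 0.91, and 4 rose without E15 replicate 3. Ier3 had 10.65, 10.26 and 10.61 in E15 progenitors, against 6.69, 6.90, 6.63 and 7.15 in E11 progenitors (difference 3.67, adjusted p = 9.43e-12). Fosl2 rose by 2.34, Atf3 by 2.08, Junb by 1.84 and Zfp36 by 1.71, and without E15 replicate 3 the calls of Atf3 and Zfp36 were among those lost. Fos, Jun and Egr1, differed by 0.49, 0.60 and 0.49 and were not called. List means were 10.87, 10.83 and 11.22 in E15 arrays, against 9.73, 10.35, 10.10 and 9.94 in E11 arrays. The enzymes used to dissociate the cells differed between the groups, and their part in these values cannot be told apart from stage.

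Antigen presentation and interferon genes rose for 7 of 18 and fell for 0 by limma (10 higher and 1 lower at an unadjusted p under 0.05, 7 and 0 by the methods' t-test), with a median of 0.70. Tap2, a peptide transporter subunit, had 9.08, 8.66 and 8.47 in E15 progenitors, against 6.44, 6.26, 5.98 and 6.60 in E11 progenitors (difference 2.42, adjusted p = 1.1e-10). Bst2 rose by 2.09, Tap1 by 1.81, the immunoproteasome subunit Psmb9 by 1.74 and Ifitm3 by 1.59, the last of which was not called without E15 replicate 2. The class I genes H2-D1 and H2-K1 differed by 0.90 and 0.82 and were not called. List means were 9.17, 9.13 and 9.04 in E15 arrays, against 8.35, 8.34, 8.21 and 8.26 in E11 arrays.

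Markers of other cell types were low in most lists. Endothelial markers gave 0 calls of 14 by limma, by the methods' t-test and at an unadjusted p under 0.05, and 12 of them were at or under 100 in both populations, Pecam1 and Cdh5 included. Erythroid markers gave 0 calls of 10 in the same tests, with 9 low in both. Leukocyte markers were low in both for 14 of 16, with list means of 5.70, 5.91 and 5.32 in E15 arrays, against 5.39, 5.01, 4.92 and 4.96 in E11 arrays. C1qb and C1qa rose by 1.69 and 1.12, calls that were both lost without E15 replicate 1 or 2 or without E11 replicate 2 or 3, and 1 of them without E11 replicate 1 or 4, and Ptprc (CD45) was at 3.7 in E15 and 3.6 in E11 progenitors. Mesenchymal markers went both ways (2 rose and 1 fell of 15, 8 low in both). Col1a2 fell by 2.24 (not called by the methods' t-test), with 6.22, 9.21 and 6.95 in E15 progenitors against 9.67, 9.52, 9.84 and 9.78 in E11 progenitors, while Twist1 rose by 1.42 and Tagln by 1.23. Of 7 mesothelial markers Gpm6a fell by 2.07, and 2 fell without E15 replicate 2.

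Some neuronal and neural crest markers differed as well. Of 10 neuronal markers 6 fell, Nefm (-2.55), Elavl4 (-2.51), Elavl3 (-2.26), Stmn3 (-1.80), Tubb3 (-1.74) and Nefl (-1.63), and 1 rose, Stmn2 by 1.44, which was not called with the replicate block, without E15 replicate 2 or without any 1 of the E11 arrays. List means were 6.81, 7.15 and 6.52 in E15 arrays, against 7.83, 7.89, 7.89 and 7.63 in E11 arrays. Endocrine progenitors had means of 11.7 for Tubb3 and 9.9 for Elavl4, above both progenitor populations. Of 9 neural crest and Schwann cell markers 2 rose, S100b by 6.08 and Sox10 by 2.24, and 4 rose without E15 replicate 3. S100b had 10.85, 10.64 and 10.999 in E15 progenitors, against 4.77, 4.85, 5.03 and 4.33 in E11 progenitors, and the E15 mean was the highest of all 13 populations. Sox10 had 9.07, 9.02 and 9.57 in E15 progenitors, against 6.999, 7.14, 6.67 and 7.10 in E11 progenitors. Of the 9 markers, 4 were low in both populations, and the Schwann cell markers Cdh19 (4.2 in both) and Ngfr (6.0 in both) were low. Means of this list were 7.56, 7.84 and 7.31 in E15 arrays, against 6.48, 6.58, 6.52 and 6.38 in E11 arrays. A part of such cells in the S100b result was not tested.

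Other large rises lay outside the lists. Nfix, a nuclear factor I transcription factor, had 11.29, 11.13 and 11.497 in E15 progenitors, against 6.16, 5.44, 5.57 and 5.82 in E11 progenitors (difference 5.56, adjusted p = 4.02e-18). The E11 mean of Nfix was the lowest of the 13 populations, and its means were 12.3 in endocrine progenitors and 12.8 in adult duct cells. Clca3a1, a chloride channel accessory gene with close paralogues, rose by 5.99, the matrix gene Sbspon by 5.24, Cym, which encodes the milk-clotting protease chymosin, by 5.19, and Ptgds, a prostaglandin D synthase, by 5.04.

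Some genes were higher in a progenitor population than in every array of the other populations. All 4 E11 arrays lay above the other 44 for 335 genes, of which 94 fell and 241 were not called. The widest gap was that of Nepn, which encodes nephrocan, a small matrix protein of the early gut. It had 5.75, 6.11 and 5.74 in E15 progenitors, against 11.87, 11.98, 11.97 and 11.76 in E11 progenitors (difference -6.03, adjusted p = 5.87e-26), a gap of 4.98 to the nearest other array. Next came Igdcc3 (gap 2.75), Fndc3c1 (2.58), Lin28a (2.54), Prtg (1.65), Serpina1c (1.57), Greb1 (1.56) and the gastrin receptor gene Cckbr (1.49). These 7 fell by 2.01 to 6.40, and another probe of Igdcc3 was near equal, with a difference of 0.30.

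All 3 E15 arrays lay above the other 45 for 86 genes, of which 45 rose and 41 were not called. Cnmd, chondromodulin, a protein of cartilage matrix, had 10.15, 10.30 and 10.498 in E15 progenitors, against 4.76, 5.27, 4.99 and 5.10 in E11 progenitors (difference 5.29, adjusted p = 2.96e-17), and the gap to the nearest other array was 3.06. No other population had a mean of Cnmd above 6.64 on this scale. Eppin followed with a gap of 1.70 and Elf5, an ETS factor of secretory epithelia, with 1.19. Elf5 had 10.09, 9.78 and 10.44 in E15 progenitors, against 6.59, 6.39, 6.35 and 6.67 in E11 progenitors. The gaps of Ttyh1, Akr1cl, Ugt8a, Has3 and Vnn1 were 0.83 to 0.93, and their differences 1.23 to 2.80, with the call of Akr1cl lost without E15 replicate 3. Vnn1 and Akr1cl ranked high in E11 progenitors also, the third and second highest of the 13 populations.

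**Figure D4:**
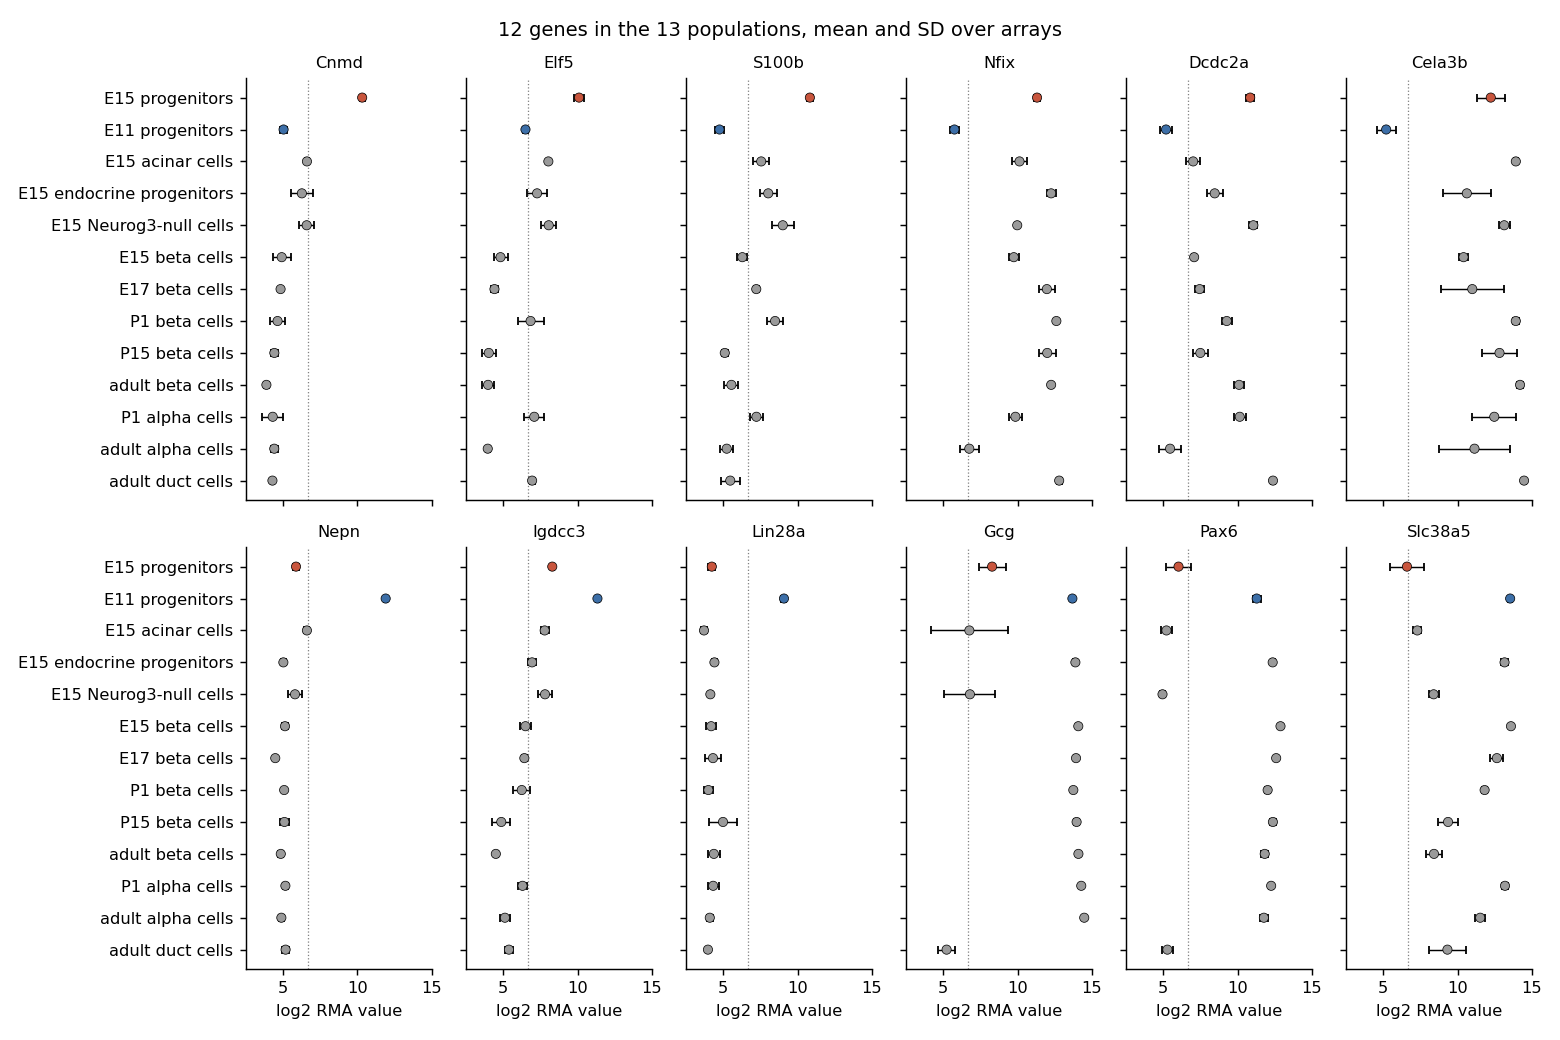
Mean log2 level of 12 genes in the 13 sorted populations, with SD whiskers and a dotted line at log2 of 100 (6.64). E15 and E11 progenitors come first. Cnmd, Elf5 and S100b have their highest mean in E15 progenitors, Nepn, Igdcc3 and Lin28a in E11 progenitors, and Gcg, Pax6 and Slc38a5 are high in E11 progenitors and in endocrine populations but lower in E15 progenitors.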

How the data were processed

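RNA of sorted cells was amplified and hybridised to Affymetrix mouse arrays, and the deposited values of 48 arrays are log2 expression that the authors made with RMA (R version 2.11.1 per the submitters' processing notes). No counts lie behind them, so the number of arrays limits the precision. Of 45101 probes, 34958 had 1 gene in the platform annotation, 932 had several and 9211 had none. Genes without a probe of their own were not analysed here. RMA scales arrays to a common distribution, so a shift of total RNA would not be seen.

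A linear model over the means of the 13 populations was fitted with limma (version 3.58.1, R version 4.3.3) to the 32078 probes above 100 on the linear scale in at least 1 array. All adjusted p-values are limma's, moderated, two-sided and Benjamini-Hochberg adjusted over these probes, and calls needed 0.05 and a 2-fold difference. The fit was tested on simulated data. A gene took the values of the probe with 1 gene that was brightest over the arrays.

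The genes named were the 15 largest rises and 15 largest falls without overlap, the genes used for sorting or as markers, up to 5 called members of each list with uncalled members by value, the 8 genes with the widest gap above all other arrays in each population, and the promoters of 2 digestive and 2 endocrine genes. Genes outside this rule that stand beside them complete the account of a list. Members and lists were chosen with earlier results of these data known.

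Replicates with the same number in both groups had deviations from their group means that correlated at 0.148, 0.118 and 0.106, against -0.205 to 0.164 for pairs of different number, and the numbers come from the titles, so a fit with the replicate number as a block was run beside the main fit. Other alternatives were the filter, the choice of probe, the scaling, array weights, a fit on the 7 arrays alone, the methods' t-test (Benjamini-Hochberg adjusted), stricter and looser thresholds, and leaving out each array. Sequences are RefSeq's for GRCm38.p6, where 34754 of the probes' gene IDs matched.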

Additional observations from a re-analysis of the deposited data

Results flagged for a closer look

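In E11 progenitors, the population with 4 arrays, 233 gene levels and list means were examined for an array apart from the other 3, taken as a gap to the nearest array relative to the whole range above the critical value of Dixon's test. Such a gap was found in 11, and chance gives about 1 in 20. Replicate 3 was the highest for Neurod1 (12.04 against 11.52 to 11.57, ratio 0.897), for St18 (10.13 against 9.50 to 9.59, ratio 0.856) and for the mean of the endocrine transcription factors (10.26 against 10.01 to 10.04, ratio 0.853). Replicate 2 was the highest for Cdx2 (7.01 against 5.49 to 5.58, ratio 0.944), for Sfrp5 (7.96 against 7.49 to 7.51, ratio 0.954), for the mean of the foregut, intestinal and hepatic factors (7.90 against 7.53 to 7.55, ratio 0.939) and for the mean of the erythroid markers (5.55 against 4.45 to 4.60, ratio 0.859). Replicate 4 was the lowest for Bmp4 (6.75 against 7.03 to 7.06, ratio 0.917) and Dll3 (6.90 against 7.81 to 7.98, ratio 0.846) and the highest for the mean of the chromatin regulators (10.50 against 10.44 to 10.45, ratio 0.892). Replicate 1 was the highest for Pdia2 (5.62 against 5.05 to 5.12, ratio 0.879). Of the 10 erythroid markers, 9 were low in both populations, and the part of red cells in the E11 values was not tested.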

How the results depend on the processing

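Without a minimum fold, the calls were 8027 probes (3554 higher, 4473 lower) and 4191 genes (1946 higher, 2245 lower), against 3630 probes and 1966 genes with the 2-fold minimum. Leaving out each of the 7 arrays in turn gave 3419 to 3592 probes (1434 to 1608 that rose and 1927 to 2037 that fell) and 1871 to 1942 genes (834 to 898 that rose and 1012 to 1057 that fell). Among all list members, with a gene of several lists counted once, 222 to 230 were then called, against 238 in the main fit. The methods' t-test called 1953 genes. With the replicate block, 1929 genes were called, 1877 of the 1966 the same way, and of the 188 genes named by rule C1qb, Dhrs3, Etv5 and Ptk7 lost their call. With each array centred on its median, 1034 genes rose and 956 fell, and the median difference of all genes was 0.0885. Of 828 called genes with 2 or more probes, 521 had another probe called the same way. The named genes had 137 other probes, of which 105 gave the same call as the probe used. A further 29 kept the sign of a called gene but were not called, among them probes of Sfrp5, Cldn2, Egfr and Lats2. Other probes gave the opposite sign for the called genes Gng4 (0.4243, against -5.28), Irs4 (0.1227, against -4.35) and Igdcc3 (0.2964, against -3.04). The cause of these reversals was not tested. Of 183 named genes that were called, 160 were called in all 21 alternatives. The size of a difference against a low mean is not exact, which held for 447 falls and 292 rises with 1 low mean and for 247 calls with both means low.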

Other observations

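Nfix was among the largest rises outside the gene lists, and the other 3 nuclear factor I genes were looked up after its value was seen. All 4 rose, and every probe of each gene rose. Nfib had 12.75, 12.57 and 12.45 in E15 progenitors, against 9.54, 9.50, 9.49 and 9.72 in E11 progenitors (difference 3.03, limma adjusted p = 5.78e-08, 7 of 7 probes). Nfia had 10.92, 10.85 and 10.82 in E15 progenitors, against 8.23, 8.36, 7.93 and 8.40 in E11 progenitors (difference 2.63, limma adjusted p = 9.98e-12, 4 of 4 probes). Nfic had 8.84, 8.42 and 8.91 in E15 progenitors, against 7.78, 7.80, 7.35 and 7.78 in E11 progenitors (difference 1.04, limma adjusted p = 0.000116, 4 of 4 probes). E11 progenitors had the lowest mean of the 13 populations for Nfia, Nfic and Nfix and ranked 11 of 13 for Nfib.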
